A study of Saccharomyces cerevisiae with 8 samples.

Results

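The genes examined here keep and read the mitochondrial genome of budding yeast, Saccharomyces cerevisiae. They are 9 nuclear genes, ABF2, MIP1, RIM1, HMI1, PIF1, MGM101, MHR1, RPO41 and MTF1, out of 5656 genes with a probe set of their own on the array. They were chosen by their symbols, with earlier results of these data known. All 9 were measured, RIM1 by 2 probe sets and every other gene by 1, which gives 10 of the 9275 probe sets tested.

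Yeast mitochondrial DNA encodes, among other products, a small set of respiratory chain and ATP synthase subunits together with ribosomal and transfer RNAs. The proteins examined here, which copy, package, recombine and transcribe it, are made from nuclear genes and imported. Cells that lose this DNA or large parts of it can still grow by fermentation, which makes yeast a classical system for studying these proteins. In the nucleoid, the compact form in which the DNA is kept, packaging, replication and recombination proteins act on the same molecules.

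RNA was measured in 8 cultures of haploid strains derived from W303a, 1 Affymetrix array per culture. Per the labels, every strain had its own eIF5A genes, HYP2 and ANB1, disrupted and lived on a plasmid with human EIF5A1, which encodes a translation factor. In 4 cultures the plasmid encoded wild-type EIF5A1 and growth was described as normal, and in 4 it encoded the point mutant V81G, described as temperature sensitive. The titles call the cultures of a group biological replicates and the design text speaks of 4 isogenic strains per group, so how independent they are is known only that far. All were grown at 25 °C, the permissive temperature, into early logarithmic phase, so the comparison asks how transcript levels differ between the strains while both grow. No age, drug or second treatment enters the comparison, and anything else that the strains of a group have in common cannot be told apart from the mutation. RNA came from whole cultures, so a lower level in every cell and fewer cells with the transcript cannot be told apart.

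Both genes that the labels call disrupted gave bright signals, and intensity alone does not show whether a gene is intact. HYP2, described as disrupted throughout, had a log2 intensity of 15.42 ± 0.01 (SD, n = 4) in the arrays labelled wild type and 12.02 ± 0.23 (n = 4) in those labelled V81G, and ANB1 stood at 14.04 ± 0.13 and 14.18 ± 0.21. The groups are therefore called by their labels. The HYP2 values in wild type lay near the highest deposited intensity. Their SD of 0.01 may therefore not show precision, and saturation was not tested. A W303 strain name ending in a usually stands for mating type a. Of the 4 markers fixed for alpha cells, MF(ALPHA)1 stood at 14.47 ± 0.41 and 13.86 ± 0.66 (wild type first), STE3 at 11.21 ± 0.31 and 11.47 ± 0.32, SAG1 at 11.40 ± 0.16 and 13.17 ± 0.11, and MF(ALPHA)2 at 8.80 ± 0.31 and 9.16 ± 0.77. Of the 6 markers of a cells, the pheromone genes MFA1 (by its brighter probe set) and MFA2 stood at 10.42 ± 0.36 and 10.47 ± 0.12 and at 11.40 ± 0.50 and 11.71 ± 0.05. The alpha-factor receptor gene STE2 stood at 8.11 ± 0.16 and 9.26 ± 0.12, and STE6, BAR1 and AGA2 had group means between 8.25 and 9.61. In wild type STE2, STE6, BAR1 and AGA2 of the a-cell markers had means under 9.03, the 25th percentile of probe-set means. Of the alpha-cell markers only MF(ALPHA)2 did. SAG1 was higher in V81G by 1.77 (limma adjusted p = 4.25e-05), STE2 by 1.14 (4.08e-04) and STE6 by 0.61 (0.0362). The mating type was not settled here. Per the run sheets, day 1 of hybridization held arrays 1 and 2 of each group, and day 2 held arrays 3 and 4.

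Transcripts of the machinery were lower in the V81G arrays for packaging, recombination, single-strand binding and the RNA polymerase. MGM101, ABF2, RIM1, MHR1 and RPO41 fell, by 0.59 to 1.53 on the log2 scale, and in each of these 5 the 4 V81G arrays lay below all 4 wild-type arrays. The DNA polymerase gene MIP1 and the transcription factor gene MTF1 had negative differences that did not pass the test, and the helicase genes HMI1 and PIF1 had small positive ones that did not pass either. Thus 5 of 9 members fell, none rose and 4 did not pass, with a median difference of -0.59. Over all 5656 genes 12.3% fell and 9.21% rose, the median difference was -0.08, and 16.6% had their V81G arrays below all wild-type arrays. Differences are V81G minus wild type in log2 units with their standard error (SE). Calls rest on limma's adjusted p under 0.05, where the adjustment runs over all 9275 probe sets.

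**Figure D1:**
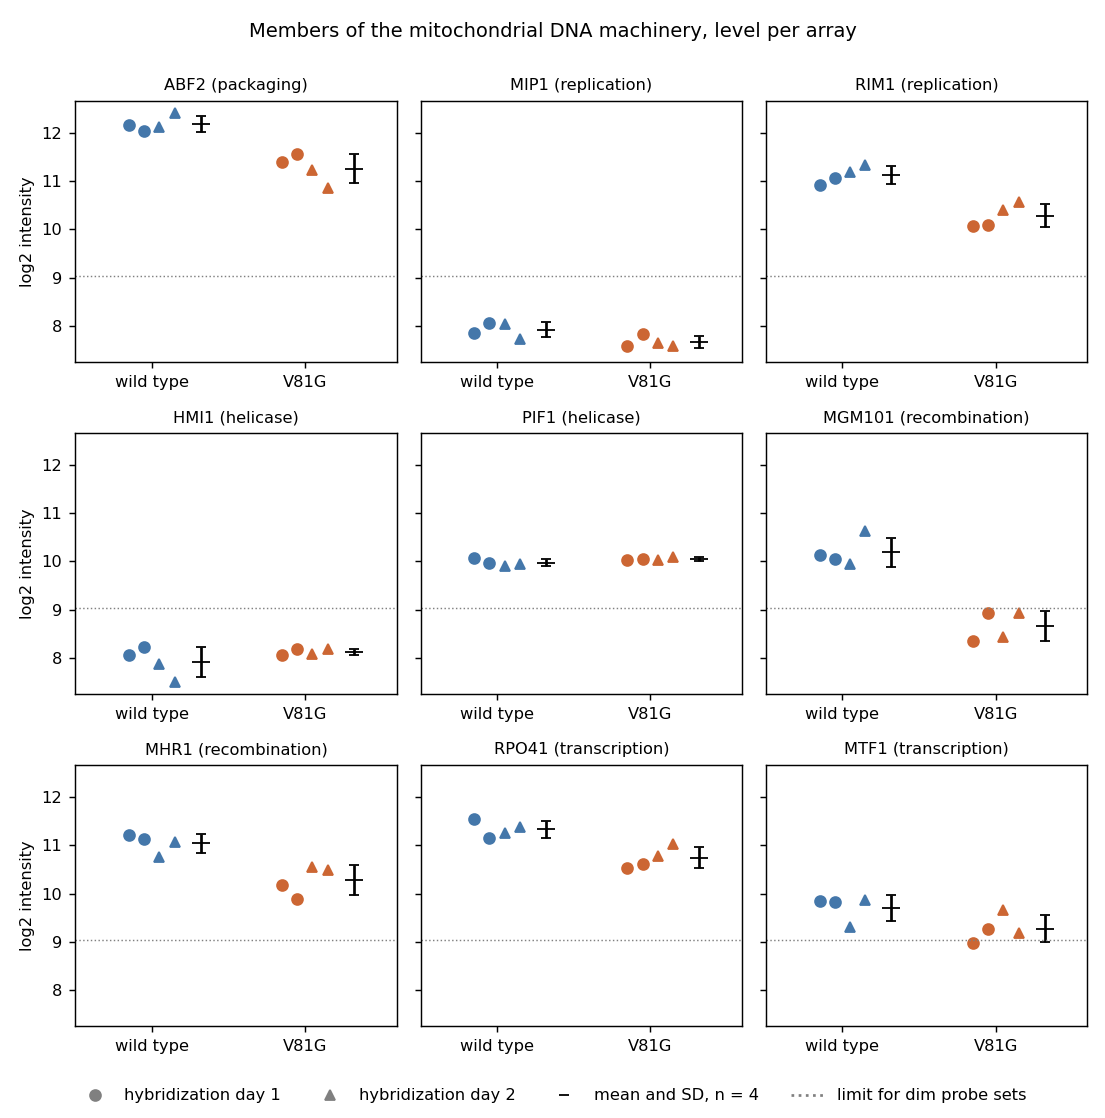
Log2 intensity (vertical axis) of each member in the 4 wild-type (blue) and 4 V81G (orange) arrays, circles for day 1 and triangles for day 2, bars for mean and SD, and a dotted line at 9.03, the limit under which probe sets are called dim. ABF2, RIM1, MGM101, MHR1 and RPO41 show V81G arrays wholly below the wild-type arrays, and the groups overlap for MIP1, HMI1, PIF1 and MTF1. Heights are not comparable between genes, since probes differ in brightness.

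ABF2 (YMR072W, chromosome XIII) encodes the HMG-box protein that coats and compacts mitochondrial DNA. Its log2 intensities in wild-type arrays 1 to 4 were 12.17, 12.04, 12.12 and 12.42, and in V81G arrays 1 to 4 they were 11.39, 11.56, 11.23 and 10.86. The groups were 0.48 apart at their nearest arrays, with V81G 4 the lowest. The difference was -0.93 ± 0.17 (SE), a level 1.90-fold lower (limma adjusted p = 0.00479). It was -0.63 on day 1 and -1.23 on day 2.

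MIP1 (YOR330C, chromosome XV) encodes the catalytic subunit of the mitochondrial DNA polymerase. The wild-type arrays gave 7.85, 8.06, 8.04 and 7.73 and the V81G arrays 7.58, 7.83, 7.65 and 7.58. The groups overlapped, since V81G 2 lay above wild type 4. The difference of -0.26 ± 0.13 did not pass (adjusted p = 0.213), and its 95% confidence interval ran from -0.55 to 0.03. All 8 values lay under 9.03, the 25th percentile of probe-set means, where background can shrink a difference.

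RIM1 (YCR028C-A, chromosome III) encodes the single-stranded DNA-binding protein of mitochondria, which covers DNA opened during replication. In its brighter probe set the wild-type arrays stood at 10.92, 11.05, 11.20 and 11.34 and the V81G arrays at 10.08, 10.10, 10.39 and 10.56. In both groups the day 2 arrays were the higher ones, and the groups stayed 0.36 apart. RIM1 fell by 0.85 ± 0.16, or 1.80-fold (adjusted p = 0.00503), with -0.90 on day 1 and -0.79 on day 2. The dimmer probe set, at 10.55, 10.42, 11.05 and 11.55 in wild type and 9.35, 9.55, 9.90 and 10.05 in V81G, fell too, by 1.18 ± 0.26 (adjusted p = 0.0121). Both probe sets of the gene thus had the same direction on both days.

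HMI1 (YOL095C, chromosome XV) encodes a mitochondrial DNA helicase needed to keep an intact mitochondrial genome. Its wild-type arrays gave 8.06, 8.23, 7.87 and 7.49 and its V81G arrays 8.06, 8.19, 8.07 and 8.18. The V81G arrays lay close together, inside the range of the wild-type arrays, in which the day 2 arrays were the low ones. The difference was 0.21 ± 0.16 (adjusted p = 0.450, interval -0.15 to 0.58), all of it at dim intensities, and the days gave -0.02 and 0.44.

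PIF1 (YML061C, chromosome XIII) encodes a helicase that works both in mitochondria and in the nucleus, where it removes telomerase from chromosome ends. The array reads the transcript as a whole and not the protein's location. The wild-type arrays stood at 10.07, 9.96, 9.91 and 9.96 and the V81G arrays at 10.03, 10.06, 10.02 and 10.10. The arrays of a group lay close together, with SDs of 0.07 and 0.04, and the groups overlapped. PIF1 differed by 0.08 ± 0.11 (adjusted p = 0.702), and the interval of -0.16 to 0.32 bounds the difference within these arrays.

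MGM101 (YJR144W, chromosome X) encodes a nucleoid protein that anneals DNA strands in recombination and repair of the mitochondrial genome. It had the largest difference of the 9 genes. The wild-type arrays gave 10.13, 10.06, 9.94 and 10.63 and the V81G arrays 8.34, 8.94, 8.44 and 8.93. The lowest wild-type array was 1.00 above the highest V81G array. MGM101 fell by 1.53 ± 0.20, or 2.89-fold (adjusted p = 8.2e-04), with -1.46 on day 1 and -1.60 on day 2. Its V81G mean, 8.66 ± 0.31 (SD, n = 4), lay under 9.03, so with regard to background the size is a lower limit.

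MHR1 (YDR296W, chromosome IV) encodes a homologous pairing protein that starts recombination-driven replication of mitochondrial DNA, and the same protein is also a component of the mitochondrial ribosome. Its wild-type arrays stood at 11.22, 11.13, 10.75 and 11.06 and its V81G arrays at 10.17, 9.90, 10.56 and 10.50. The groups came within 0.19 of each other on day 2, between wild type 3 and V81G 3. MHR1 fell by 0.76 ± 0.18, or 1.70-fold (adjusted p = 0.0159). The difference was -1.14 on day 1 and -0.38 on day 2, the latter without a call (adjusted p = 0.147), and the call was also lost without wild type 1 (adjusted p = 0.0538).

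RPO41 (YFL036W, chromosome VI) encodes the single-subunit RNA polymerase that transcribes mitochondrial DNA and makes primers for its replication. The wild-type arrays gave 11.54, 11.15, 11.25 and 11.38 and the V81G arrays 10.53, 10.61, 10.78 and 11.03. The nearest arrays of the groups, V81G 4 and wild type 2, were 0.12 apart. RPO41 fell by 0.59 ± 0.15, or 1.51-fold (adjusted p = 0.0226), with -0.77 on day 1 and -0.41 on day 2. Of the 5 calls this one was lost in the most fits with an array left out. Without V81G 1 (adjusted p = 0.0606), V81G 2 (0.0581), wild type 1 (0.0698) or wild type 4 (0.0562) it did not pass, while the difference stayed between -0.69 and -0.52 whichever array was left out.

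MTF1 (YMR228W, chromosome XIII) encodes the specificity factor with which Rpo41 recognises and opens mitochondrial promoters. Its wild-type arrays stood at 9.84, 9.82, 9.30 and 9.87 and its V81G arrays at 8.97, 9.26, 9.66 and 9.19. The groups overlapped, since wild type 3 lay below V81G 3, an array of the same day. The difference of -0.44 ± 0.18 did not pass (adjusted p = 0.146, interval -0.85 to -0.02). Polymerase and specificity factor transcripts thus differ in their calls, and whether their differences differ was not tested.

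**Figure D2:**
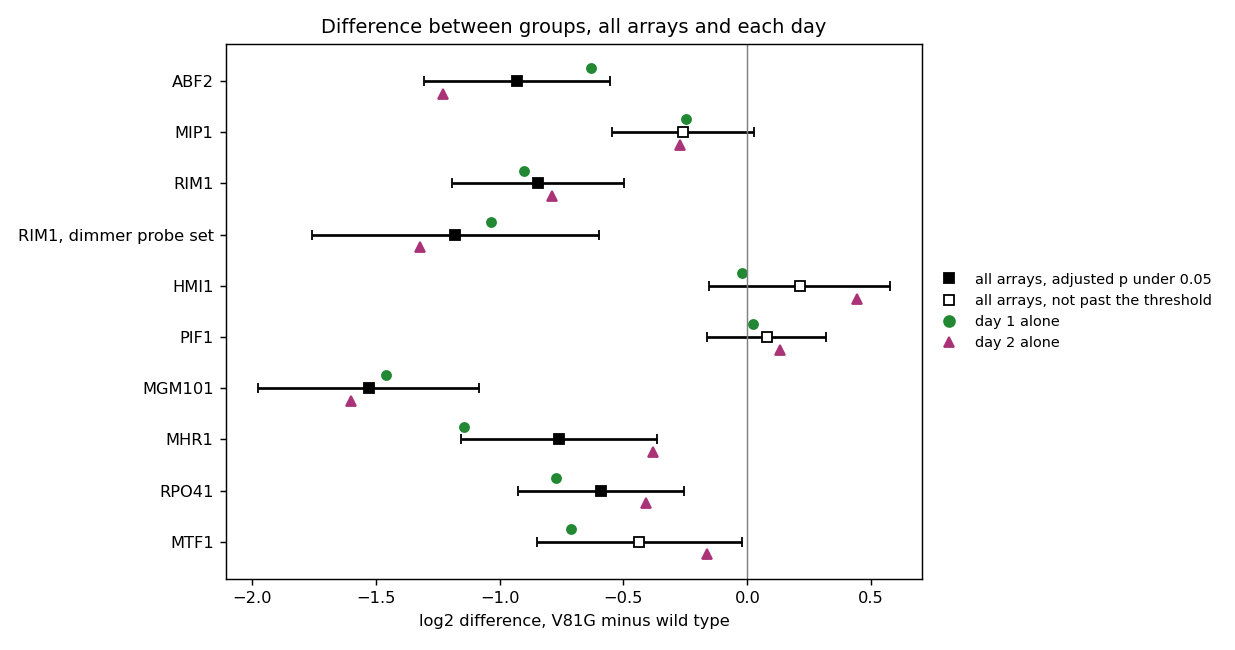
Log2 difference of V81G minus wild type (horizontal axis) for each member probe set, squares with 95% confidence intervals for all 8 arrays (filled where adjusted p is under 0.05), circles for day 1 and triangles for day 2. MGM101 lies farthest from 0 at -1.53, and HMI1 and PIF1 lie at 0.21 and 0.08. ABF2 is further from 0 on day 2, and MHR1, RPO41 and MTF1 are further from 0 on day 1.

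The day values were compared by an interaction of group and day in limma. None of the 9 members passed, against 1.86% of all genes. At an unadjusted p under 0.05 there were 2 members, MHR1 (difference on day 2 less day 1, 0.76 ± 0.23, limma adjusted p = 0.175) and ABF2 (-0.60 ± 0.26, limma adjusted p = 0.327), and 18.9% of all genes. MHR1 and ABF2 were lower in V81G on both days, and their changes between days had opposite signs, each without a call. On day 1 both V81G arrays ran on fluidics station 2 and both wild-type arrays on station 1. On day 2 wild type 4 ran on station 2 and the other arrays on station 1. Station 2 thus held V81G arrays of day 1 and a single wild-type array of day 2. A fit with the station as a block and no term for day therefore cannot separate station from day. With the station as a block, which was added after seeing the data, all 5 falls were still called, from MGM101 (-1.59, adjusted p = 0.00137) to RPO41 (-0.55, adjusted p = 0.0328).

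Expressed in each array as the median over the 9 genes relative to each gene's wild-type mean, the members stood at -0.80, -0.63, -0.48 and -0.52 in V81G arrays 1 to 4. The wild-type arrays, near 0 by construction, stood at 0.10, -0.015, -0.066 and 0.05. The same median over all 5656 genes lay between -0.11 and -0.03 in the V81G arrays. In the 5 fallen members every V81G array lay below all wild-type arrays. A negative median over the 9 genes in each V81G array follows from that and is no further support. Among the V81G arrays, those of day 1 had the lower medians.

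None of the 9 genes lies on chromosome VIII, whose 259 genes had a median difference of 0.46 against -0.09 for the 5378 other nuclear genes. The members are spread over 6 chromosomes, and their nearest measured neighbours, 1 on each side, were set beside them. Of these 18 neighbours 3 fell, 15 did not pass, and the median was -0.27. Over all genes 12.3% fell and the median was -0.08, so the count of fallen neighbours is near the general share. TUB2, the beta-tubulin gene near RPO41, fell by 0.93 ± 0.13 (adjusted p = 0.00103). VMA4, a vacuolar ATPase subunit gene beside MIP1, fell by 0.49 ± 0.12 (adjusted p = 0.0196), and PMT4, a protein mannosyltransferase gene beside MGM101, fell by 0.48 ± 0.14 (adjusted p = 0.0353). The neighbours of ABF2, RIM1 and MHR1, the other fallen members, did not pass.

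By Pearson's r over the 8 arrays, ABF2 was most like CAT8, an activator gene of gluconeogenesis (r = 0.992), RPN11, a proteasome lid subunit gene (0.992), and GSR1 (0.990). RPO41 was most like SDH7, which serves succinate dehydrogenase assembly (0.984), HIR2, a histone gene regulator (0.984), and TOM22, a receptor of the outer membrane import pore (0.982). MIP1 was most like UBS1 (0.938), the splicing factor gene CWC2 (0.928) and CBP6, a gene for cytochrome b translation (0.927). The arrays share the group difference and the days, so these values only describe likeness. After removing group means r was 0.955, 0.968 and 0.978 for the genes named with ABF2, 0.935, 0.939 and 0.924 for those named with RPO41, and 0.892, 0.838 and 0.916 for those named with MIP1, in the order given.

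Other genes of the pathway were followed in lists of fixed membership, chosen with earlier results of these data known. The counts in this and the other lists stand beside 12.3% fallen and 9.21% risen over all genes. Among 11 genes of mitochondrial DNA repair and recombination 1 fell, and the median was 0.04. No member of this list rose. The fallen one, the mitochondrial nuclease gene NUC1, fell by 0.65 ± 0.19 (adjusted p = 0.0446), a call kept only without V81G 3 or wild type 3 when single arrays were left out (adjusted p up to 0.111). MSH1, the mitochondrial relative of the mismatch repair protein MutS, was named after its values were seen. It differed by 1.01 ± 0.34, from 9.22 in wild type to 10.23 in V81G, without a call (adjusted p = 0.0744). It passed without V81G 2 (adjusted p = 0.0390) and, paired by replicate number, at an adjusted p of 0.00520. MSH1 lies on chromosome VIII.

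Of 11 further proteins found in nucleoids, enzymes and chaperones with other main roles, 6 fell and 0 rose, and their median was -0.64. Here KGD2, of the alpha-ketoglutarate dehydrogenase complex, fell by 1.66 ± 0.30 (adjusted p = 0.00492), by -0.89 on day 1 and -2.44 on day 2. LPD1, dihydrolipoamide dehydrogenase, fell by 1.22 ± 0.19 (adjusted p = 0.00185) and IDP1, a mitochondrial isocitrate dehydrogenase, fell by 1.13 ± 0.22 (adjusted p = 0.00718). With single arrays left out, 3 to 7 members of this list fell, 3 of them without wild type 4.

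Of 14 genes that process, splice or degrade mitochondrial RNA 2 fell, none rose and the median was -0.20. RPM2, the protein subunit gene of mitochondrial RNase P, fell by 0.84 ± 0.12 (adjusted p = 0.00151) and kept its call whichever array was left out. PET127, which acts on the 5' ends of mitochondrial transcripts, fell by 0.43 ± 0.12 (adjusted p = 0.0387), which did not pass once the replicate number was a block (adjusted p = 0.0503) and was kept in 1 of 8 fits with an array left out, that without wild type 4.

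Deoxynucleotide supply serves both genomes. Of its 10 genes 4 fell and 1 rose, with a median of -0.35. The small subunit genes of ribonucleotide reductase, RNR2 and RNR4, fell by 0.92 ± 0.13 (adjusted p = 0.00133) and 0.82 ± 0.18 (adjusted p = 0.0140), and the dUTPase gene DUT1 fell by 0.68 ± 0.16 (adjusted p = 0.0149). The damage-inducible large subunit gene RNR3 rose by 0.55 ± 0.16 (adjusted p = 0.0407). That rise did not pass once the replicate number was a block (adjusted p = 0.05001) and was lost in every fit with an array left out except that without wild type 3.

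Of 13 genes for mitochondrial shape and inheritance of its DNA 2 rose and 2 fell, with a median of -0.13. MDM12, of the tether between mitochondria and the endoplasmic reticulum, rose by 0.78 ± 0.21 (adjusted p = 0.0288), without a call when V81G 1, V81G 2, wild type 1 or wild type 3 was left out (adjusted p up to 0.0897). MDM31, an inner membrane protein gene on chromosome VIII, rose by 0.65 ± 0.19 (adjusted p = 0.0383), with a call in the fits without V81G 3 or V81G 4 and in no other with an array left out. The fission genes FIS1 and DNM1 fell, by 0.89 ± 0.21 (adjusted p = 0.0149) and 0.87 ± 0.24 (adjusted p = 0.0341). The DNM1 call was kept only without V81G 1 or wild type 3, and that of FIS1 in all 8 such fits.

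Nuclear DNA replication genes were set beside the members as the other replication machinery of the cell. Of 24 genes 7 fell and 2 rose, with a median of -0.21. All subunit genes of the nuclear single-strand binding complex fell, RFA1 by 0.87 ± 0.15 (adjusted p = 0.00388), RFA3 by 0.69 ± 0.14 (adjusted p = 0.00895) and RFA2 by 0.56 ± 0.16 (adjusted p = 0.0364). The call of RFA2 was lost without V81G 3, V81G 4, wild type 1, wild type 2 or wild type 4. RRM3, a helicase gene of the Pif1 family, rose by 1.33 ± 0.20 (adjusted p = 0.00173), and DNA2, a nuclease and helicase gene, rose by 0.97 ± 0.18 (adjusted p = 0.00589). Both lie on chromosome VIII, whose genes stood higher as given above. Leaving out any 1 of the 8 arrays brought the falls in this list to between 2 and 4.

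**Figure D3:**
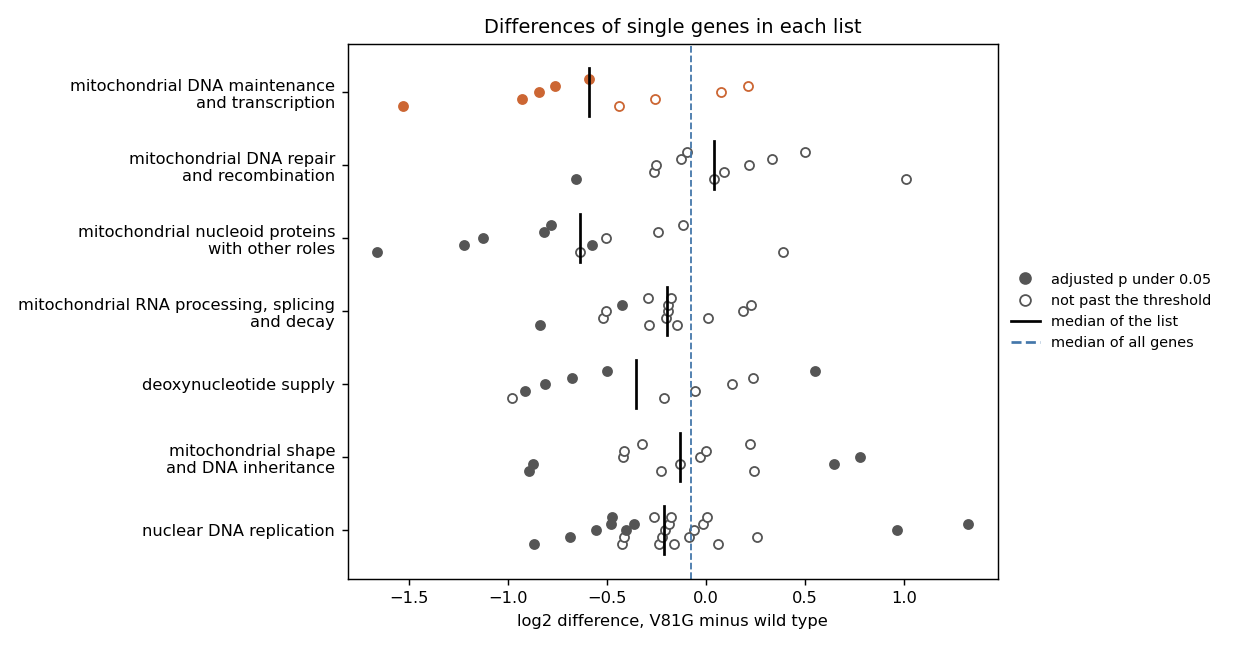
Log2 difference of V81G minus wild type (horizontal axis) for every gene of the members and of 6 lists (rows, offset for legibility), filled where adjusted p is under 0.05, with each list's median as a bar and the median of all genes as a dashed line. The medians of the members and of the nucleoid proteins lie at -0.59 and -0.64 and that of the repair list at 0.04.

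Transcripts of the mitochondrial genome, which this machinery produces, were read on the same arrays. ATP6 stood at 12.02 ± 0.09 (SD, n = 4) in wild type and 7.47 ± 0.14 in V81G, OLI1 at 14.67 ± 0.17 and 10.34 ± 0.33, and COX1 at 13.66 ± 0.27 and 10.22 ± 0.15, in their brightest probe sets. The other probe set of OLI1, dim in both groups, differed by 0.16 ± 0.18 (SE) without a call (limma adjusted p = 0.625). The dimmer probe sets of COX1 differed by less than its brightest, by -0.92 ± 0.14 (adjusted p = 0.00177) and -0.96 ± 0.21 (adjusted p = 0.0119). COX3 stood at 10.43 ± 0.41 and 11.55 ± 0.93, a difference of 1.12 ± 0.41 without a call (adjusted p = 0.0956), which passed when arrays were paired by replicate number (adjusted p = 0.0105). COX2 and VAR1 were dim in both groups, and COB differed by -1.48 ± 0.38 (adjusted p = 0.0256), to a dim level and with overlapping groups. That COB call was kept only without V81G 3 or wild type 2 when single arrays were left out (adjusted p up to 0.0765), and the gene's other probe set did not pass (adjusted p = 0.0725). Of 28 probe sets of single mitochondrially encoded genes 7 fell and none rose, where 12.3% of all genes fell and 9.21% rose. Several of the fallen probe sets belong to COX1, so the count is not one of separate transcripts. The part of the mitochondrial transcripts in the differences of the 9 nuclear genes was not tested, and neither the amount of mitochondrial DNA nor respiration was measured.

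**Figure D4:**
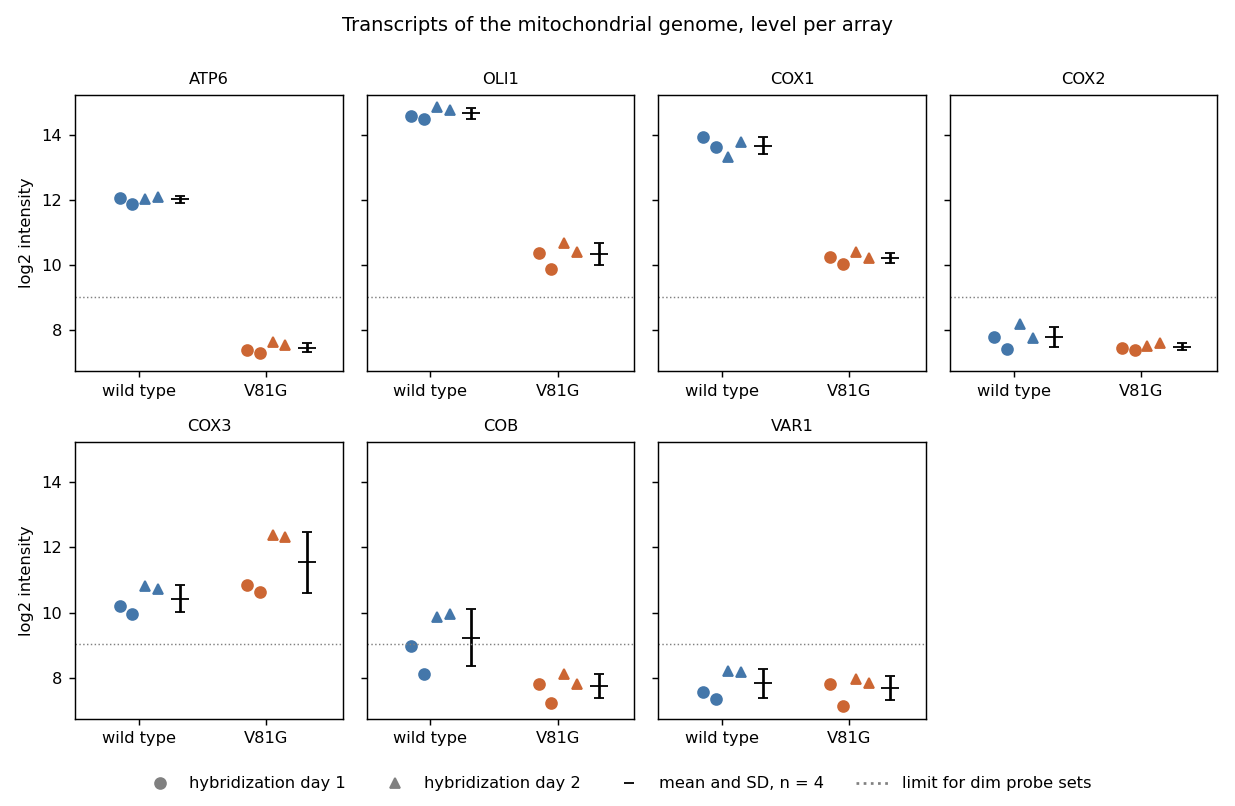
Log2 intensity (vertical axis) of 7 transcripts of the mitochondrial genome in each wild-type (blue) and V81G (orange) array, circles for day 1 and triangles for day 2, bars for mean and SD, and a dotted line at the dim limit of 9.03. Each gene is shown by its brightest probe set. ATP6, OLI1 and COX1 lie lower in all V81G arrays, and COX3 lies higher in the V81G arrays on both days, by 0.66 on day 1 and 1.58 on day 2.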

How the data were processed

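Each of 8 arrays measured 1 culture. The table deposited by the authors gives an intensity per probe set, not logged, from 89.9 to 44207. RMA, which corrects background, equalises arrays and summarises probes, is named in the submitters' processing notes, and log2 was taken here. Any scaling or centring after RMA is unknown. Median intensities ran from 1099 to 1190, and precision is limited by the number of arrays.

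After 60 control probe sets were left out, 9275 remained. The platform annotation listed 1 symbol for 6504 of them, several for 328 and none for 2443, and all 6504 matched the R64 gene table of RefSeq on gene ID. The probe set with the highest mean stood for a gene. No genome build is named for the array, so no coordinates are given.

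Two-sided tests of group, with no further term, came from lmFit and eBayes of limma 3.58.1 (R 4.3.3), with Benjamini-Hochberg adjustment over all probe sets. The fit was tested on simulated data. Named genes were the members, up to 3 rises and 3 falls per list, the 3 genes most like MIP1, ABF2 and RPO41, HYP2 and ANB1 and the mitochondrially encoded genes. The members and lists were chosen with earlier results of these data known, and the neighbours were added after seeing the data. One gene of the RNA processing list, NAM1, was matched through its synonym.

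Same-numbered arrays of the 2 groups deviated together from their group means (r = 0.23 to 0.44 across probe sets), as did differently numbered arrays of the same day (r = 0.22 to 0.34), while arrays of different days gave r = -0.41 to -0.14. The values thus follow the shared hybridization day and do not single out the number. The numbers were taken as pairs for that shared day, and the replicate number served as a block in an alternative fit. Alternatives changed the dim filter, normalization, centring, blocks, days, arrays left out, variance model and scale. The labels call the arrays biological replicates.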

Additional observations from a re-analysis of the deposited data

Results flagged for a closer look

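In MTF1 the third wild-type array stood apart from its group, at 9.30 against 9.82 for the next lowest. DNM1 showed the same array apart, at 9.23 against 10.03. Among 86 groups of 4 arrays examined, these 2 met Dixon's criterion at the 95% level (gap over range of 0.915 and 0.844), and about 1 in 20 groups meets it by chance. The KGD2 difference changed between hybridization days, by -1.55 from day 1 to day 2 (limma interaction, adjusted p = 0.0228).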

How the results depend on the processing

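Across 20 alternatives, 174 of 184 member results kept their direction and their side of the threshold. HMI1 reversed to -0.020 on day 1 alone, and 9 calls, of ABF2, MHR1 and RPO41, were lost in single days or with an array left out. ABF2 missed on day 1 alone (adjusted p = 0.0594), as did RPO41 (0.0556), and RPO41 also missed on day 2 (0.117). The number of fallen members was 3 on day 1 alone, 3 on day 2 alone and between 3 and 5 with 1 array left out, 3 being the value without wild type 1 (RIM1, MGM101 and ABF2). It was 5 with the replicate block and 5 with the day as a block, and the replicate block changed no call of a member. Among the listed genes it added 6 calls (MSH1, YHM2, RMD9, RNR1, MDM38 and POL30) and removed 4 (PET127, RNR3, RFC2 and MCM2). With the day as a block, the genes of both groups passed. Over all probe sets 1628 were called, 1858 with the replicate block and 2389 with the day as a block. With 1 array left out, between 1131 and 1555 were called. The interaction of group and day called 0 members in each of its alternatives. The stricter dim filter left 4 members tested. Those 4 were ABF2, RIM1, MHR1 and RPO41, all of which fell. MIP1, HMI1 and the V81G level of MGM101 were dim, which limits what their sizes can show.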
